A study of Mus musculus with 3 samples.

Results

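The genes of the inhibitory synapse described here are 29 genes of GABA and glycine signalling, chosen by symbol: subunits of the GABA-A, GABA-B and glycine receptors, the enzymes and the transporter that make, load and break down GABA, and proteins that anchor or move the receptors. All 29 were found, each as 1 entry, among 33101 gene names with a value. They do not hold every subunit gene of these families. Levels came from poly(A) RNA of micro-dissected dentate gyri of adult male wild-type mice (C57Black6, 8 to 10 weeks), with 3 libraries in 1 group and no second condition. The table gives 1 value per gene for the whole group, in FPKM, fragments counted per unit of transcript length and of mapped depth. No value therefore has a replicate error, sequencing depth is unknown, and no p-value is given, so differences between genes are ratios of values and not tested differences.

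GABA is the main inhibitory transmitter of the forebrain. It opens chloride channels, the GABA-A receptors, which are pentamers assembled from alpha, beta and gamma, delta or other subunits, and it acts more slowly through GABA-B receptors, which couple to G proteins. Glycine opens related pentameric channels that are best known from spinal cord and brain stem. In the dentate gyrus, granule cells receive fast inhibition at synapses and a steady tonic inhibition through receptors outside synapses, and local interneurons are the main source of GABA.

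Granule cell markers were present. All 5 granule cell genes checked lay between 43.3 FPKM for Dsp and 111 FPKM for C1ql2, with C1ql3 at 102 FPKM. The excitatory neuron genes Camk2a, Nrgn and Slc17a7 stood at 1205, 617 and 318 FPKM. The tissue was mixed: the astrocyte markers Aldoc and Glul stood at 511 and 502 FPKM, and Aqp4 was the lowest of 7 at 37.9 FPKM. In such bulk tissue, fewer cells of a type and less RNA per cell cannot be told apart, and the cell type behind each level below was not tested.

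The alpha subunit largely decides how a GABA-A receptor responds to classical benzodiazepines. A histidine at 1 place of its extracellular part allows diazepam to bind, and an arginine there prevents it. The coding stretch around this place is shown for the 5 alpha genes because their levels are compared below; capitals mark the codon, which is a histidine codon in Gabra2, Gabra3 and Gabra5 and an arginine codon in Gabra4 and Gabra6. Sequences are from GENCODE M21 transcripts, printed 5′ to 3′ on the coding strand.
Gabra2: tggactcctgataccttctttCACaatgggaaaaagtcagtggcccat
Gabra3: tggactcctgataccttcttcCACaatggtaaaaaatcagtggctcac
Gabra5: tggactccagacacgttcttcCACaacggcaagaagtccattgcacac
Gabra4: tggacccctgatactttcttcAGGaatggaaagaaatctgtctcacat
Gabra6: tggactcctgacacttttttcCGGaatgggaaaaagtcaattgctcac
On GRCm38 these 48 bases lie at chr5:71014481-71014528 in Gabra2, chrX:72501144-72501191 in Gabra3, chr7:57488867-57488914 in Gabra5, chr5:71641128-71641175 in Gabra4 and chr11:42317623-42317670 in Gabra6, each on the minus strand and within 1 coding exon.

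Levels differed widely between roles. At 1 FPKM or more stood 20 members (69.0%), against 39.6% of all names with a value and 56.4% of 20135 protein-coding names. At 10 FPKM or more stood 17 members (58.6%), against 21.1% of all names and 30.8% of protein-coding names. The median of the members was 12.2 FPKM, against 2.46 FPKM for protein-coding names and 0.0869 FPKM for all names. Of the other 9 members, 4 lay above 0 and below 1 FPKM and 5 (17.2%) were listed at 0, against 40.4% of all names and 24.1% of protein-coding names. The levels summed to 1064 FPKM, of which scaffold and receptor traffic genes made up 37.8%, GABA-B subunits 22.1%, GABA-A subunits 20.4%, synthesis, loading and breakdown 14.3% and glycine receptor subunits 5.43%.

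**Figure D1:**
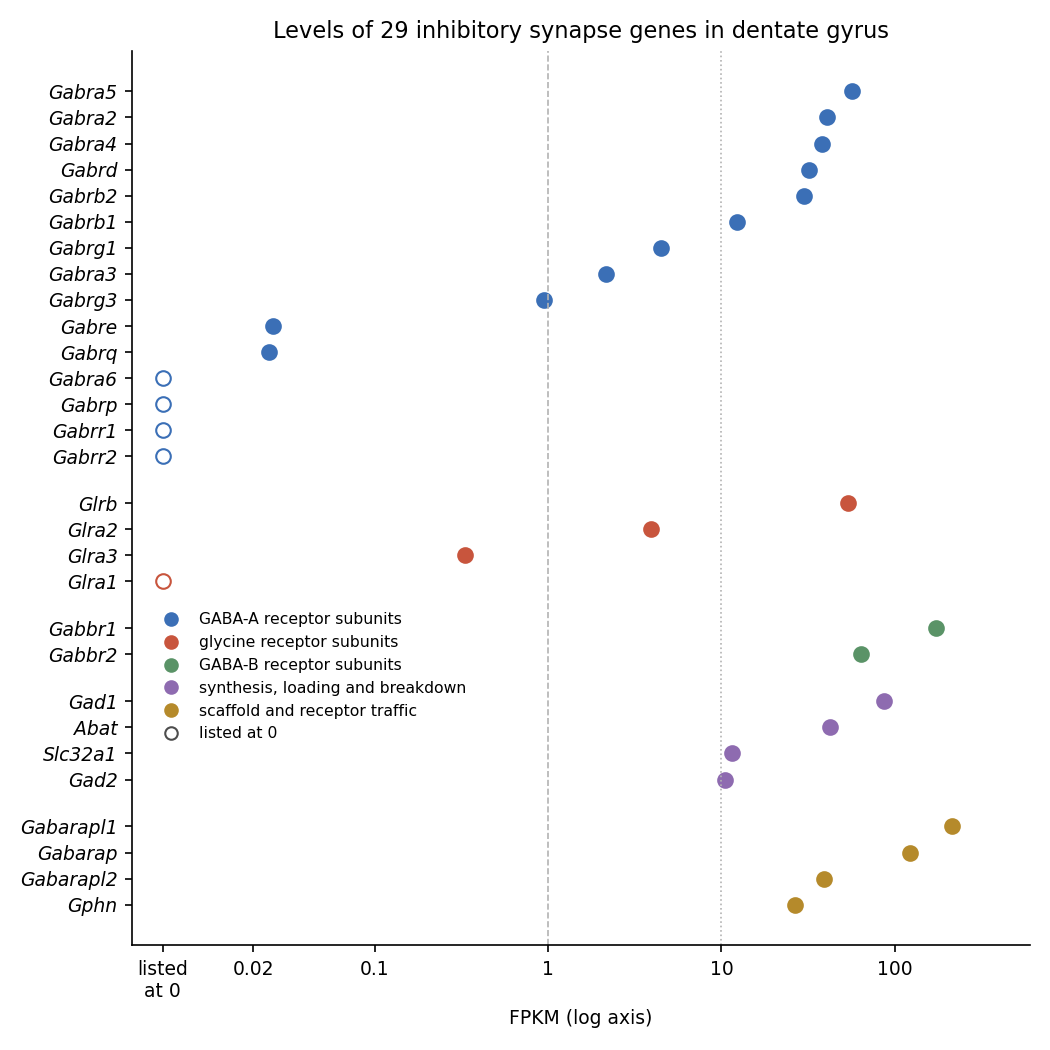
Level of each of the 29 genes in FPKM on a log axis, grouped by role and ordered by level, with lines at 1 and 10 FPKM; open circles at the left edge are genes listed at 0, which have no place on a log axis. GABA-A subunit genes run from 57.0 FPKM for Gabra5 down to 4 genes listed at 0, while all genes of GABA-B receptors, GABA metabolism, scaffold and receptor traffic lie above 10 FPKM.

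Among the 5 alpha subunit genes described, Gabra5 was highest at 57.0 FPKM. Its subunit forms mainly extrasynaptic receptors and is known for its abundance in hippocampus. Gabra2, whose subunit is found at synapses and on the axon initial segment of hippocampal principal cells, stood at 40.7 FPKM. Gabra4, whose subunit joins delta in the extrasynaptic receptors of granule cells, stood at 37.8 FPKM. These 3 genes lay within a narrow range, Gabra2 being 1.08 times Gabra4 and 0.714 times Gabra5. The listed transcript of Gabra2 is annotated in GENCODE M21 as a nonsense-mediated decay form of 2245 nt, against 5852 nt for its longest coding form, and its ratios carry this limit. Gabra3 was far below them at 2.16 FPKM, so that Gabra5 was 26.3 times and Gabra4 17.5 times Gabra3. Gabra6, known from cerebellar granule cells, was listed at 0, and the cerebellar markers Cbln3, Barhl1 and Fat2 were at 0.0594, 0.0202 and 0 FPKM. Set against the sequences above, the histidine-codon genes described here, Gabra2, Gabra3 and Gabra5, summed to 99.9 FPKM. Gabra4, the arginine-codon gene described that had a level above 0, stood at 0.379 of that sum. The sum includes Gabra2 and carries its limit, and it does not cover every alpha subunit gene.

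Of the beta subunit genes described, Gabrb2 stood at 29.8 FPKM and Gabrb1 at 12.2 FPKM, a ratio of 2.43. The transcript listed for Gabrb2 was not found in GENCODE M21, so its length is unknown and the ratio carries this limit. Beta subunits form the GABA binding pocket together with alpha. A processed pseudogene, Gm15616, lies inside the span of Gabrb1 on the same strand and had 18.4 FPKM. Its part in the Gabrb1 value was not tested. The delta subunit gene Gabrd, which takes the place of gamma in tonic receptors, stood at 32.1 FPKM. This was 0.850 times the level of its partner Gabra4 and 7.14 times that of the gamma subunit gene Gabrg1, at 4.50 FPKM. Gabrg3, the other gamma gene described, was at 0.950 FPKM, so that Gabrg1 exceeded it by 4.73-fold. Gabrd, Gabra4 and Gabra5, the genes best known from extrasynaptic receptors, were all above 30 FPKM. This was not particular to them, since Gabra2, whose subunit is found at synapses, stood at 40.7 FPKM.

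The remaining GABA-A members were very low. The epsilon subunit gene Gabre was at 0.0258 FPKM and the theta subunit gene Gabrq at 0.0245 FPKM, both known mainly from hypothalamus and brain stem. Gabrp, whose pi subunit is known from reproductive tissues, was listed at 0. Gabrr1 and Gabrr2, whose subunits are known from retina, were listed at 0, and the retinal markers Pde6b and Crx were at 0.0852 and 0 FPKM. A listed 0 need not mean an absent transcript: Grin1, the obligate NMDA receptor subunit gene of excitatory synapses (named after its value was seen), was also listed at 0, whereas 0 of 72 ribosomal protein genes were. In all, 8 of the 15 GABA-A members (53.3%) were at 1 FPKM or more, against 56.4% of protein-coding names, and 6 (40.0%) at 10 FPKM or more, against 30.8%. Their median was 2.16 FPKM, against 2.46 FPKM for protein-coding names, and 4 (26.7%) were listed at 0, against 24.1%.

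Many GABA-A subunit genes lie next to each other on chromosomes, and the members formed 5 such groups when entries less than 1000 kb apart were joined. The largest, on chromosome 5, held Gabrg1, Gabra2, Gabra4 and Gabrb1 in that order, from 71142286 to 72529628 in the mm9 coordinates of the table. It spans 1387 kb. Gabra2 at 40.7 FPKM and Gabrg1 at 4.50 FPKM are 118 kb apart there and on the same strand. On chromosome 7, Gabra5 at 57.0 FPKM and Gabrg3 at 0.950 FPKM are separated by 20.5 kb. Next to each other on chromosome 11, with 98.7 kb between them, Gabrb2 stood at 29.8 FPKM, whereas Gabra6 had a listed 0. The X chromosome group of Gabre, Gabra3 and Gabrq was low throughout, between 0.0245 and 2.16 FPKM, and Gabrr2 and Gabrr1 on chromosome 4 were both listed at 0. All 4 X-linked members, Glra2 included, were below 10 FPKM (median 1.10 FPKM). They are all receptor subunit genes. Below 10 FPKM were also 6 of the 12 autosomal GABA-A members and 13927 of 20135 protein-coding names. The median of the 12 autosomal GABA-A members was 8.37 FPKM, and that of all 25 autosomal members, which include the abundant GABA-B, metabolism and traffic genes, was 29.8 FPKM. In the chromosome 5 group the neighbours Gabra2 and Gabra4 were close in level and Gabrg1 and Gabrb1 were lower, and in the chromosome 7 and 11 groups 1 member was far above the other.

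**Figure D2:**
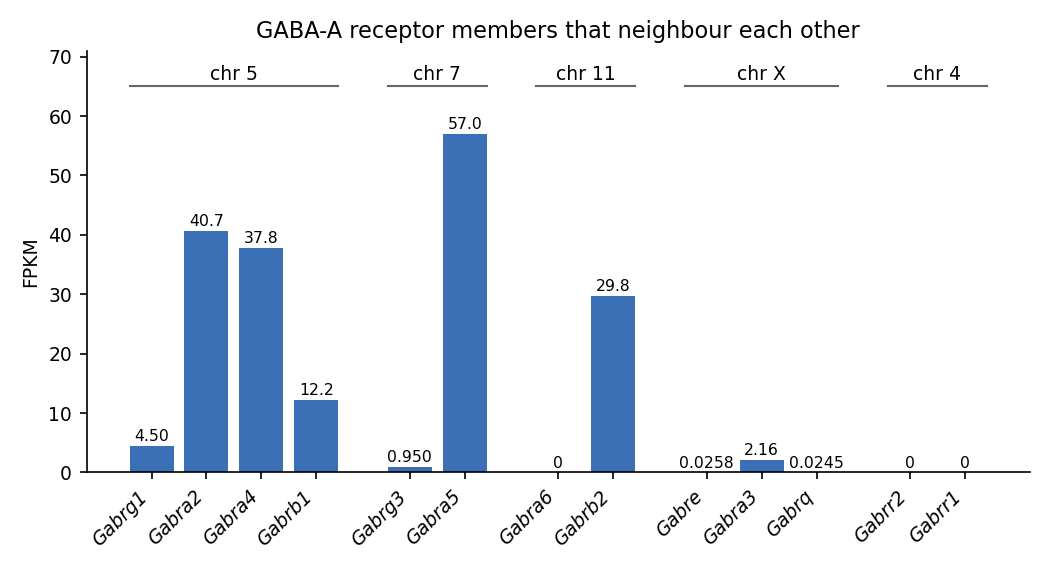
FPKM of the 13 GABA-A members that lie in groups on 5 chromosomes, in chromosomal order within each group. Gabra2 and Gabra4 stand above their neighbours Gabrg1 and Gabrb1, and Gabra5 and Gabrb2 stand beside a neighbour below 1 FPKM or listed at 0.

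Glycine receptor genes were led by the beta subunit. Glrb stood at 53.5 FPKM, against 3.92 FPKM for Glra2, the alpha subunit gene known as the main form before and around birth, 0.333 FPKM for Glra3, and 0 for Glra1, the main adult alpha gene of spinal cord and brain stem. Glrb was 13.7 times Glra2 and 12.6 times the 3 alpha genes summed, and Glra2 was 11.8 times Glra3. Slc6a5, the glycine transporter of glycinergic neurons, was at 0.0152 FPKM, and Hoxb8 and Hoxc8, which mark spinal levels, were listed at 0. The listed transcripts of Glrb and Glra3 are a nonsense-mediated decay form of 2979 nt and a noncoding form of 3586 nt. The Glrb form is close in length to the longest coding form of 3029 nt.

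The beta subunit is the part of the glycine receptor that gephyrin holds at synapses. The stretch that encodes the core of its gephyrin-binding loop is shown because Glrb and Gphn were both well above the glycine alpha genes; capitals mark the core, in 1 coding exon at chr3:80845150-80845212 (GRCm38, minus strand), and the listed transcript contains it.
Glrb: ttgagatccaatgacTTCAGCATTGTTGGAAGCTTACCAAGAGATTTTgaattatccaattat
Gphn, which encodes gephyrin, the scaffold of both glycine and many GABA-A receptors and also an enzyme of molybdenum cofactor synthesis, stood at 26.6 FPKM. Glrb was 2.01 times Gphn.

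Both GABA-B receptor genes were abundant. Gabbr1, whose subunit binds GABA, stood at 172 FPKM, higher than 98.8% of protein-coding names. Gabbr2, whose subunit brings the receptor to the surface and couples to G proteins, stood at 63.5 FPKM, higher than 95.2%. The receptor is an obligate pair of these subunits, and the ratio of Gabbr1 to Gabbr2 was 2.71. Their listed transcripts are their longest coding forms, of 5248 and 5750 nt.

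Genes of GABA synthesis, loading and breakdown all exceeded 10 FPKM. Gad2, which encodes the synaptic form of glutamate decarboxylase, was lowest at 10.6 FPKM, and Slc32a1, the transporter that fills vesicles with GABA and glycine, was close to it at 11.5 FPKM, 1.09 times Gad2. The listed Slc32a1 transcript was not found in GENCODE M21 either, so its length is unknown too. Abat, the transaminase that breaks GABA down in neurons and astrocytes, stood at 42.4 FPKM, 4.02 times Gad2. An entry on the opposite strand, Gm9851, overlaps Abat and had 14.6 FPKM. With no step that marks the strand, reads of the overlap cannot be told apart.

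Gad1, which encodes the form of glutamate decarboxylase that makes most of the GABA in brain, had the highest value of the 4 at 87.1 FPKM, 8.25 times Gad2. This value carries a limit. The listed Gad1 transcript is a short coding form of 398 nt, against 3355 nt for the longest, whereas the listed Gad2 transcript is the longest form of 5744 nt. The stretch around the lysine codon that binds the cofactor pyridoxal phosphate is shown for both enzymes, with that codon in capitals.
Gad1: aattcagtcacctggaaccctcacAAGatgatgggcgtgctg
Gad2: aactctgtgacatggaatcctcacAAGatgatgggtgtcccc
It lies at chr2:70593436-70593477 in Gad1 and chr2:22673948-22673989 in Gad2 (GRCm38, plus strand). The listed Gad2 transcript contains this stretch and the listed Gad1 transcript does not. The Gad1 value may belong to the whole gene or to the short form (not given in the sources used here), so the ratio of 8.25 may not be a ratio of whole transcripts.

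Markers of GABAergic interneurons, the cells that make GABA, spanned a wide range. The highest of 12 were Cck at 230 FPKM, which excitatory cells also express, and Sst at 109 FPKM. Lhx6 had the lowest value, 0.444 FPKM. Their median was 7.29 FPKM and 9 of 12 (75.0%) reached 1 FPKM, against 56.4% of protein-coding names. All 4 genes of synthesis, loading and breakdown lay above that median.

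The highest of all members was a traffic gene. Gabarapl1 stood at 214 FPKM, higher than 99.2% of protein-coding names, Gabarap at 122 FPKM and Gabarapl2 at 39.2 FPKM. Their products are small ubiquitin-like proteins that bind GABA-A receptors or fusion factors on the way to the surface and also serve on autophagosomes, so their levels are not particular to inhibitory synapses. Gabarapl1 was 1.75 times and Gabarapl2 0.320 times Gabarap. All 3 coding sequences are 351 nt long. Between Gabarap and Gabarapl1, 74.6% of aligned bases were identical, and 61.5% between Gabarap and Gabarapl2.

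Reads shared between related genes could blur such comparisons, so the longest run of identical bases between the longest coding transcripts of related members was measured. It was at most 24 nt among the 5 GABA-A alpha genes, 17 nt between the beta genes and between the gamma genes, 26 nt among the glycine alpha genes, 17 nt between Gad1 and Gad2 and 17 nt in the Gabarap family. The run was 43 nt between the GABA-B genes and 81 nt between Gabrr1 and Gabrr2, both of which were listed at 0. Read length was not given in the sources used here.

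**Figure D3:**
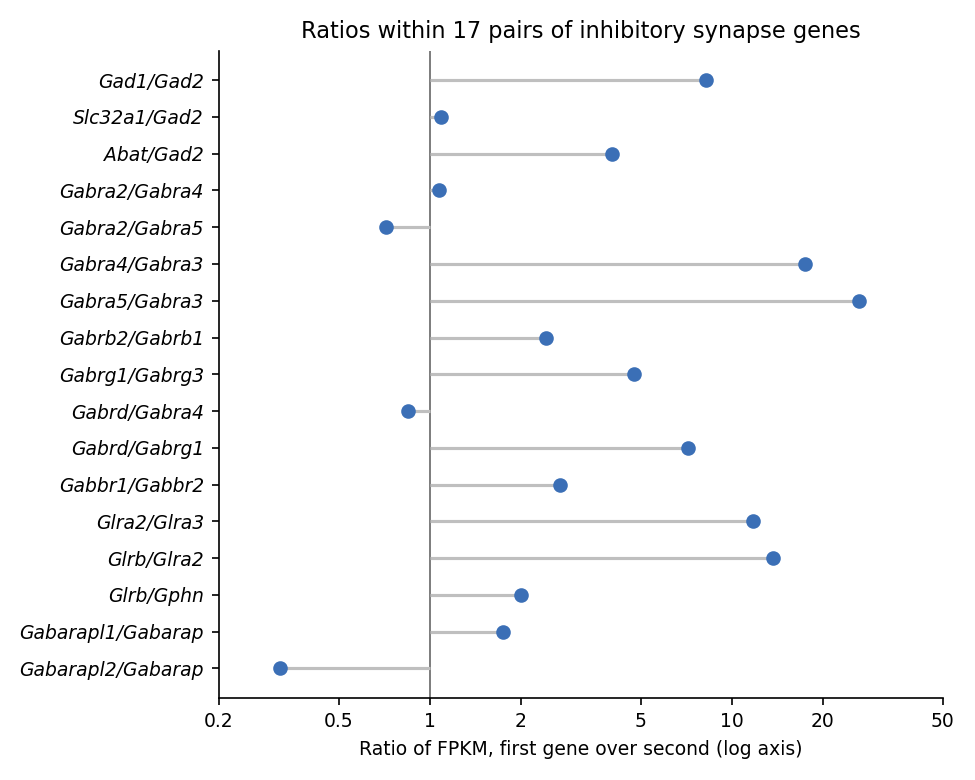
Ratio of FPKM, first gene over second, for 17 pairs of members that share a role, a receptor or a pathway step, on a log axis with a line at a ratio of 1. Gabra5/Gabra3 is highest at 26.3 and Gabarapl2/Gabarap lowest at 0.320, and Slc32a1/Gad2 and Gabra2/Gabra4 lie closest to 1, at 1.09 and 1.08.

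A list of 34 further genes of the inhibitory synapse was set beside the members. Of these, 29 (85.3%) reached 1 FPKM, 22 (64.7%) reached 10 FPKM and 1 (2.94%) was listed at 0. Among protein-coding names these shares were 56.4%, 30.8% and 24.1%. The list was chosen with earlier results of these data known, so its shares are a description only. The median of the list was 23.1 FPKM. All 7 synapse organisers were above 1 FPKM. Their median was 25.2 FPKM, and Mdga1, whose product binds neuroligins, was lowest at 6.10 FPKM. All 6 receptor traffic genes exceeded 10 FPKM, with the membrane fusion ATPase gene Nsf at 380 FPKM and Plcl1 lowest at 11.3 FPKM. The GABA-B effector channel genes, which encode G protein-gated potassium channels, ran from 38.7 FPKM for Kcnj3 to 18.4 FPKM for Kcnj6. Among the auxiliary subunit genes of GABA-B receptors, Kctd12 stood at 41.9 FPKM and Kctd12b was lowest at 0.193 FPKM.

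Levels also differed among transport and metabolism genes. Of the 6 transporter genes for GABA, glycine and related amino acids, 4 reached 1 FPKM, and Slc6a12 was listed at 0. Of the chloride transporters that set the direction of GABA currents, Slc12a5, which extrudes chloride in mature neurons, stood at 89.1 FPKM and Slc12a2, which imports it, at 5.44 FPKM. The glutamine synthetase gene Glul, an astrocyte enzyme, led the metabolism group at 502 FPKM, and Glud1 was lowest at 3.24 FPKM. Of the neurosteroid synthesis genes, Srd5a1 was at 3.08 FPKM and Akr1c14 at 0.1005 FPKM.

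**Figure D4:**
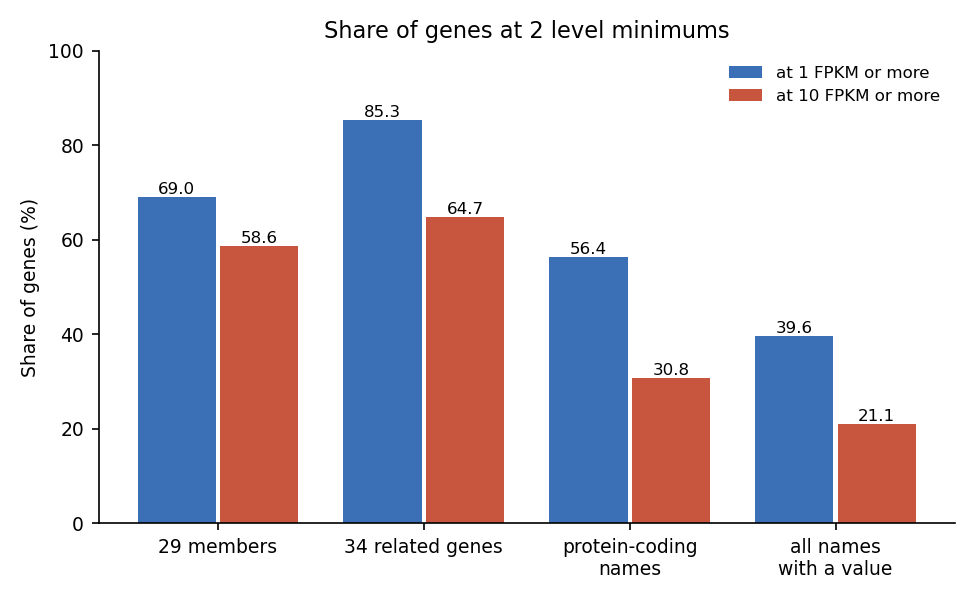
Share of genes, in percent, at 1 FPKM or more and at 10 FPKM or more among the 29 members, the 34 related genes, protein-coding names and all names with a value. The members stand at 69.0% and 58.6%, against 56.4% and 30.8% for protein-coding names.

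The study concerned DNA methylation, and CpG dinucleotides are the main sites of that mark, so the CpG number of the members' promoters was set beside their levels. The RefSeq promoter table (GRCm38.p6) held 26 of the 29 members, and the 250 bases before each start were used, taking the start with the most CpG where a gene has several. For 23 of the 30 starts, bases just after the start lay in a GENCODE M21 transcript of the gene. This failed for the starts used for Gabrb1, Gabrb2, Gabrg3, Glra3 and Slc32a1. The Gabrb1 start used had 18 CpG, and its other start, which passed, had 6. The Gabrb2 start used had 8 CpG, and its only start that passed had 4. The 15 members at 10 FPKM or more had a median of 13 CpG, with a range of 6 to 37, and the 11 members below 10 FPKM had a median of 4, with a range of 0 to 21. The median over all 27025 genes of the table was 6. Of the 15, 12 had at least 10 CpG, against 2 of the 11 and 40.2% of all genes. Both of those 2 were X-linked: Gabre with 21 and Gabrq with 19 CpG stood at 0.0258 and 0.0245 FPKM. On the starts used, Gabarap had the fewest among the abundant members, 6 CpG at 122 FPKM. The most were in Gabbr2 with 37 and Gphn with 34. Across the 26 genes, which are not independent replicates, the Spearman correlation between CpG number and level was 0.44, and 0.28 for GC content. The figures over all genes cover genes at every level, and all genes were not split by level. Whether the difference in CpG number is particular to the members was therefore not tested. The methylation of these promoters was not measured in this table.

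**Figure D5:**
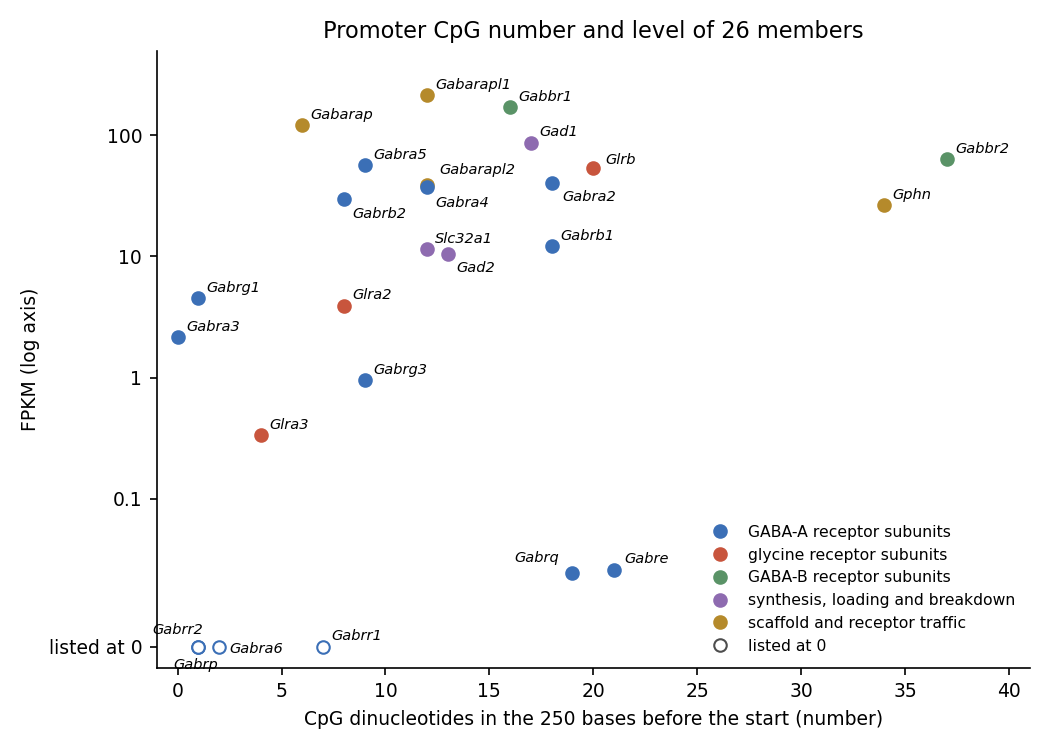
Number of CpG dinucleotides in the 250 bases before the start (horizontal axis) against FPKM on a log axis (vertical axis) for the 26 members in the promoter table, coloured by role; open circles at the bottom are genes listed at 0. For genes with several starts, the start with the most CpG is plotted. Members above 10 FPKM lie at 6 CpG or more on these starts, but the only Gabrb2 start that passed the transcript check has 4. Gabrq and Gabre lie apart, with 19 and 21 CpG and levels of 0.0245 and 0.0258 FPKM.

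Promoters of 4 alpha subunit genes show the range within 1 family, with CpG in capitals, each 250 bases long on the strand of the gene. That of Gabra2 has 18 CpG and 70.0% GC (chr5:71095850-71096099), that of Gabra4 has 12 CpG and 61.2% GC (chr5:71658309-71658558), that of Gabra3 has 0 CpG and 39.2% GC (chrX:72656808-72657057) and that of Gabra6 has 2 CpG and 40.8% GC (chr11:42321073-42321322).
Gabra2: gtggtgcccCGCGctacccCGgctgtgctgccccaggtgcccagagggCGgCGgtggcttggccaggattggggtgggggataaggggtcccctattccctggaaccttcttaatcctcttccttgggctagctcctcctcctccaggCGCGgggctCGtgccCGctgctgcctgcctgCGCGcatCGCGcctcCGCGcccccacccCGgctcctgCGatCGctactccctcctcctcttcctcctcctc
Gabra4: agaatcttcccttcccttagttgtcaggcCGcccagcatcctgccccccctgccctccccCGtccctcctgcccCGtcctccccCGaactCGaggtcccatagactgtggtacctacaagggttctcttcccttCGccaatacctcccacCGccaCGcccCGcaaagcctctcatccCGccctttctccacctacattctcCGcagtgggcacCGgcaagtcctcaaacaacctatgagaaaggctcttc
Gabra3: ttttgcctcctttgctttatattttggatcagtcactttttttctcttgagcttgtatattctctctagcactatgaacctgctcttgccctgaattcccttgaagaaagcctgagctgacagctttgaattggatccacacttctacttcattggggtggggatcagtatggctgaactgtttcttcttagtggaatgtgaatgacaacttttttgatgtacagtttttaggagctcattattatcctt
Gabra6: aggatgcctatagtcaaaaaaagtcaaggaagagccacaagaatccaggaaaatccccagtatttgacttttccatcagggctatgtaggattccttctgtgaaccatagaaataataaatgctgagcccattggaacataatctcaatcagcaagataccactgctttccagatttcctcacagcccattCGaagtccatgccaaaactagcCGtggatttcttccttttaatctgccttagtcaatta
The 2 alpha genes shown at 40.7 and 37.8 FPKM have the CpG-rich windows, and the genes at 2.16 FPKM and listed at 0 have the CpG-poor ones. Gabra5, at 57.0 FPKM, had 9 CpG.

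Short promoter motifs were searched on both strands of the 250 bases before every listed start, and a gene was counted where any of its starts held the motif. The GC box GGGCGG, a site of SP factors that itself holds a CpG, was in 16 of 26 members (61.5%) and 35.4% of all genes, CCAAT in 11 of 26 (42.3%) against 37.5%, and TATAAA in 4 of 26 (15.4%) against 14.3%. The members with TATAAA were Gabra3, Gabrb2, Gad1 and Glra2. All motif hits in Gabrb2, Gabrg3 and Glra3, among them this TATAAA of Gabrb2, came from starts that failed the transcript check above. Neither the cAMP response element TGACGTCA nor the E-box CACGTG was found in a member, and 1.77% and 6.86% of all genes hold them in these windows. These matches describe letters only and are not evidence of binding.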

How the data were processed

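Poly(A) RNA of dentate gyrus from 3 wild-type libraries was made into randomly primed cDNA libraries for Illumina HiSeq sequencing, and the labels' protocols describe no step that marks the strand. TopHat and Cufflinks and the builds mm9 and NCBIM37 are named in the submitters' processing notes. The deposited values are FPKM in 1 column for the whole group, per the file headers; the authors may have pooled reads or averaged libraries (not given in the sources used here). Of 37681 rows, 36469 held a value.

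Rows that share a symbol were summed, and starts were converted to 1-based numbers. Ratios used no pseudocount. Gene types, transcript lengths and coding stretches came from GENCODE M21 by identifier, since its build differs; promoters came from RefSeq. Listed transcripts of 27 members were found in GENCODE M21. All members, the highest and lowest gene of each related group, and the 2 highest and the lowest of each marker list were named. Members and lists were chosen with earlier results of these data known. Some genes of these families, of the related groups and of the marker lists are not reported here, whatever the rule. The counting and sequence steps were tested on simulated data. Alternatives changed the pseudocount, the handling of shared symbols, genes at 0 or below 0.1 FPKM, the list summary, the background and, chosen after seeing the data, the promoter start. Tools were Biopython 1.88, matplotlib 3.10.9, scipy 1.17.1, numpy 2.4.6 and pandas 2.3.3 in Python 3.11.15.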

Additional observations from a re-analysis of the deposited data

How the results depend on the processing

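No paired analysis was possible because the table holds 1 column for 1 group, and leaving out a replicate could not be run for the same reason. Medians depended on how genes listed at 0 were treated. The median of the members was 31.0 FPKM without genes listed at 0, 35.0 FPKM from members at 0.1 FPKM or more and 5.80 FPKM as a back-transformed mean of log2(FPKM + 0.1), against 12.2 FPKM as reported. Without genes listed at 0, the median was 12.2 FPKM for GABA-A subunits and 3.92 FPKM for glycine receptor subunits. With a pseudocount of 1 FPKM, the ratio was 2.82 for Gabrg1/Gabrg3 and 3.69 for Glra2/Glra3. The other 92 values recomputed under the alternatives lay within 1.5 times the reported ones, but many of them could not change. Each member has 1 row, so taking the highest row changed no member. Leaving out genes at 0 or below 0.1 FPKM cannot change a count at 1 or 10 FPKM. A pseudocount cannot carry a ratio across 1, so the alternatives do not test the direction of the 17 ratios. Among the 23 members whose listed transcript is a coding form of at least 0.5 of the longest, 15 reached 1 FPKM and 12 reached 10 FPKM. In 9 of the 17 pairs, both listed transcripts were such coding forms, so limiting to these forms left their ratios as they were. The others, Gad1/Gad2 among them, could not be recomputed on such forms. Using the promoter start with the fewest CpG, chosen after seeing the data, gave medians of 12 CpG for members at 10 FPKM or more and 4 for the others. The members at 10 FPKM or more then ranged from 4 to 37 CpG, and 11 of 15 had at least 10. With the depth unknown, levels near 0 and genes listed at 0 cannot be told apart.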
